A study of Mus musculus with 2 samples.

Results

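The genes described here encode 3 protein kinases of T cells, Prkch, Ptk2b and Map3k14, whose surroundings hold dense clusters of sites for the transcription factors STAT3 and STAT5. They were chosen by the number of sites in these same libraries, within fixed mm9 windows: chr12:74640000-74930000 for Prkch, chr14:66750000-66930000 for Ptk2b, and chr11:103050000-103220000 for Map3k14 and its neighbours. The windows held 117 of the 86148 sites found over the genome: 55 at Prkch, 34 at Ptk2b and 28 at Map3k14. The site density is therefore given as a description. The windows carry the names of the kinases, but no annotation of mm9 was used here, so a site is placed in the window and not in an exon, intron or promoter.

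Chromatin immunoprecipitation sequencing was done on wild-type C57BL/6J Th17 cells, an IL-17-producing kind of CD4 T cell polarised in vitro. Naive CD4 cells from spleen and lymph nodes were sorted and grown for 3 days on antibodies to CD3 and CD28, with TGF-beta (2 ng/ml) and IL-6 (20 ng/ml). The labels also list anti-IL-4, and an anti-IL-2 given in IU/ml. The cells for the STAT3 library were restimulated with IL-6 (40 ng/ml) and those for the STAT5 library with IL-2 (200 IU/ml), each for 30 minutes, before fixation with 1% formaldehyde. The STAT5 antibodies were a mixture against STAT5a and STAT5b. Antibody and cytokine thus changed together, with 1 library each, of 20784388 STAT3 and 17963766 STAT5 nuclear reads. No input library was analysed here, so binding cannot be told apart from places that give many reads with any antibody. Chromatin reads carry no marker expression, and the cell type label was not checked. Positions are counted from 1. Intervals below are 95% and cover counting error only, and no difference has a replicate check.

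STAT3 and STAT5 are carried to the nucleus after cytokine receptors activate them, STAT3 mainly by IL-6 and its relatives and STAT5 by IL-2, and both recognise the sequence TTCNNNGAA. In Th17 cells STAT3 drives the programme that includes Il17a, whereas STAT5 restrains it. Prkch encodes protein kinase C eta, a lipid-activated serine/threonine kinase. Ptk2b encodes Pyk2, a tyrosine kinase related to focal adhesion kinase that acts downstream of calcium, integrins and chemokine receptors. Map3k14 encodes NIK, the kinase that starts the non-canonical NF-kappaB pathway below receptors of the TNF receptor family.

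Sites lay about every 4 to 5 kb in all 3 windows at the 4-fold minimum of the site search. The median distance between the centres of neighbouring sites was 4475 bp at Prkch, 4150 bp at Ptk2b and 4750 bp at Map3k14, against 8200 bp over the genome. The middle 50% of spacings ran from 2675 to 6575 bp at Prkch, 2650 to 5700 bp at Ptk2b and 2650 to 7875 bp at Map3k14. Spacings over 10 kb were few, with 3 of 54 at Prkch (the longest 24800 bp), 3 of 33 at Ptk2b (17450 bp) and 2 of 27 at Map3k14 (18400 bp). Spacings of 1 kb or less numbered 5 at Prkch (9.26%, the shortest 450 bp). There was 1 each at Ptk2b (3.03%, 650 bp) and Map3k14 (3.7%, 850 bp). Over the genome 7.42% of spacings were this short. These spacings depend on the limits of the site search: against the genome-wide mean alone there were 106, 52 and 39 sites with median spacings of 1800, 1800 and 2725 bp. With a minimum of 8-fold there were 22, 12 and 14, with median spacings of 11700, 10250 and 7700 bp.

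**Figure D1:**
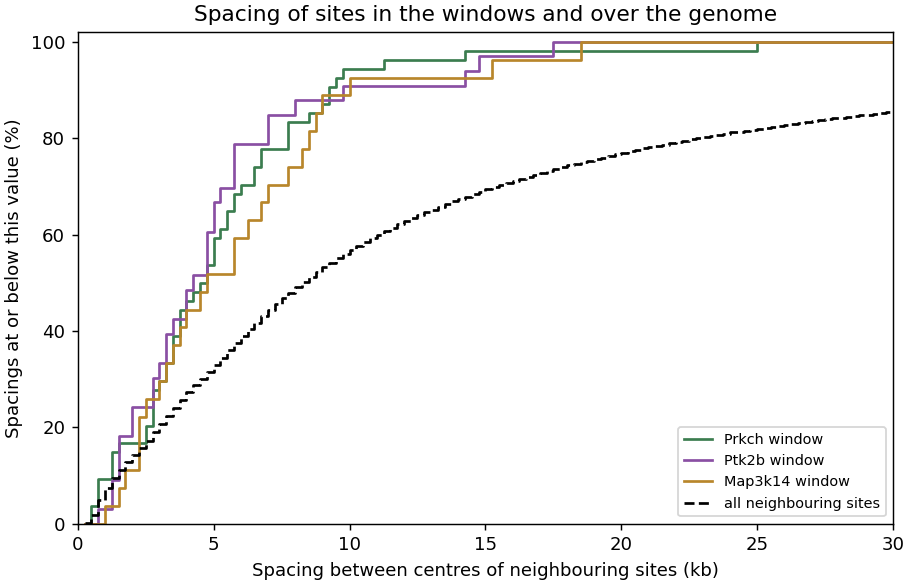
Share of spacings between neighbouring sites (vertical axis, %) at or below each distance (horizontal axis, kb) in the 3 windows (coloured lines) and over all neighbouring sites of the genome (dashed). Spacings of 10 kb or less make up 94.4% at Prkch, 90.9% at Ptk2b and 92.6% at Map3k14, against 56.8% over the genome.

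The density reached 19.0 sites per 100 kb at Prkch, 18.9 at Ptk2b and 16.5 at Map3k14, where the genome had 3.65. When the genome was divided into pieces of the same length, 3 of 8840 pieces of 290 kb held 55 sites or more, 15 of 14222 pieces of 180 kb held 34 or more, and 96 of 15052 pieces of 170 kb held 28 or more. The pieces were cut on a fixed grid, which can split a dense stretch, whereas the windows were chosen for their many sites. These counts therefore only describe the windows and do not measure how rare such clusters are. The surroundings of the windows were unlike each other. Stretches of equal length on either side of the Ptk2b window held 6 and 2 sites, and the nearest sites outside it lay 6749 and 16951 bp beyond its edges. Beside the Prkch window there were 19 and 24 sites, and beside the Map3k14 window 15 and 14. The nearest ones lay 1099 and 1351 bp, and 3549 and 601 bp, beyond the edges. Sites thus went on past the edges of these 2 windows, in smaller numbers than inside. In the RefSeq gene order of GRCm38 the next protein-coding genes are Tmem30b and Hif1a around Prkch, Chrna2 and Trim35 around Ptk2b, and Spata32 and Arhgap27 around Map3k14.

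Reads between the sites were raised too. Outside all sites the Prkch window held 30.7 STAT3 and 30.1 STAT5 reads per kb, 4.53 and 6.39 times the genome's 6.78 and 4.71. The factors were 3.11 and 4.06 at Ptk2b (21.1 and 19.1 reads per kb) and 3.10 and 2.97 at Map3k14 (21.0 and 14.0). Before and after the windows, the STAT3 level between sites was 8.49 and 18.7 reads per kb at Prkch, 5.85 and 5.48 at Ptk2b, and 19.8 and 9.06 at Map3k14. The STAT5 level was 5.17 and 19.2 at Prkch, 3.69 and 3.18 at Ptk2b, and 13.8 and 6.26 at Map3k14. Both levels were thus low on both sides of Ptk2b, and lower on one side than the other at Prkch and Map3k14. After Prkch and before Map3k14 they were raised over the genome's too, and before Map3k14 they were close to those inside the window. The median site stood 8.79 times above the level between sites for STAT3 and 20.1 times for STAT5 at Prkch, 9.12 and 13.5 times at Ptk2b, and 8.57 and 10.7 times at Map3k14. Over the genome the median site stood 18.4 and 32.9 times above the mean level outside all sites. That mean includes stretches far from any site, and the level around single sites was not measured. Whether the sites of the clusters stood less far above their own surroundings than other sites was therefore not tested.

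Part of the reads between sites lay in smaller summits. Against the genome-wide mean alone, 45 further STAT3 and 46 further STAT5 places appeared outside the sites at Prkch, 20 and 19 at Ptk2b, and 12 and 9 at Map3k14. Most were low, but 105 STAT5 and 76 STAT3 reads in 200 bp were counted at chr12:74820551-74822150, and 97 STAT5 and 4 STAT3 reads at chr12:74879151-74879650. At Map3k14, chr11:103126801-103127600 had 87 STAT5 and 5 STAT3 reads. These places are not among the 117 sites because their 5 kb or 10 kb surroundings are already rich in reads, and they were chosen for naming after their values were seen.

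The Prkch cluster was the tallest and leaned to STAT5. Its 55 sites had a median of 54 STAT3 reads in 200 bp (3 to 347), or 2.60 reads per 1000000 nuclear reads (RPM), and of 121 STAT5 reads (10 to 355), or 6.74 RPM, where the medians over all sites of the genome were 1.20 and 1.73 RPM. Summed over the sites, 3846 STAT3 reads met 7734 STAT5 reads, a STAT5 level 2.33 times the STAT3 level in RPM (interval 2.24 to 2.42), against 1.67 over all sites of the genome. A site was called higher with one library when the interval of its RPM ratio lay wholly beyond 2-fold. This held for STAT5 at 23 of the 55 sites (41.8%) and for STAT3 at 1, where 27.7% and 3.18% of all sites of the genome were so called. Sites with more reads have narrower intervals and are called more readily. The median site of the genome had 25 STAT3 and 31 STAT5 reads, fewer than here. The part of depth in this share, and in the shares of calls given below, was not tested. At the 23 sites called for STAT5, the median was 213 reads with STAT5 (46 to 340) and 32 with STAT3 (3 to 137), and 16 of them (69.6%) came from STAT5 regions alone, against 76.4% over the genome.

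Some tall STAT5 sites of Prkch had few STAT3 reads, and others had many. The sites named here were picked by their STAT5 reads or by a low STAT3/STAT5 ratio. Such picking favours gaps between the libraries, so these sites are only described. At chr12:74808951-74809450 the STAT5 library had 340 reads and the STAT3 library 17, an RPM 23.1 times as high (14.2 to 40.2). The site at chr12:74667501-74668000 had 329 STAT5 and 8 STAT3 reads, 47.6 times (23.9 to 111), the widest gap between the libraries at Prkch by the interval's near bound. It was followed by chr12:74737301-74737650, with 270 and 9 reads (34.7 times, 18.0 to 76.7). The level between sites would give 6.14 STAT3 reads in a window of 200 bp here, so 8 or 9 reads are little above it, and only 1.76% of all sites of the genome had 329 STAT5 reads or more. At the sites chr12:74733701-74734100 (331 STAT5 and 137 STAT3 reads) and chr12:74842801-74843350 (324 and 129), STAT5 was 2.80 and 2.91 times as high and STAT3 was well above that level too.

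The tallest STAT3 sites of Prkch were tall with both. The first, 177 kb into the window at chr12:74816801-74817300, had 347 STAT3 and 266 STAT5 reads, or 16.7 and 14.8 RPM (STAT3/STAT5 ratio 1.13, 0.958 to 1.33), and 0.128% of all sites had as many STAT3 reads. The second, at chr12:74880151-74880650, had 316 STAT3 reads and, with 355, also the most STAT5 reads of the cluster. Lower down, chr12:74706201-74706450 (144 STAT3 and 100 STAT5 reads) and chr12:74811901-74812250 (140 and 114) had ratios of 1.24 (0.958 to 1.62) and 1.06 (0.823 to 1.37). Neither interval excluded equal levels, although both are sites of the STAT3 regions alone. A site that lacks a region of one library therefore need not lack its reads.

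STAT3 was higher at 1 Prkch site, 132 kb into the window at chr12:74771501-74771950, with 100 STAT3 and 26 STAT5 reads (3.32, 2.14 to 5.33). That call was lost when reads were counted in 400 bp or when the libraries were scaled on bins free of regions. The next by the near bound, chr12:74685051-74685350 (59 and 16 reads, 3.19, 1.81 to 5.93) and chr12:74714251-74714600 (113 and 38, 2.57, 1.77 to 3.82), did not reach 2-fold. Along the window STAT5 was higher in every stretch of 50 kb and in the shorter last one, from 250 to 290 kb. Over all sites of the genome it was 1.67 times as high. The lean was strongest in the first stretch, where STAT5 was 3.82 times as high over 9 sites (3.40 to 4.31). It was weakest from 200 to 250 kb, with 1.79 times over 7 sites (1.63 to 1.97), an interval that includes the genome's value.

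**Figure D2:**
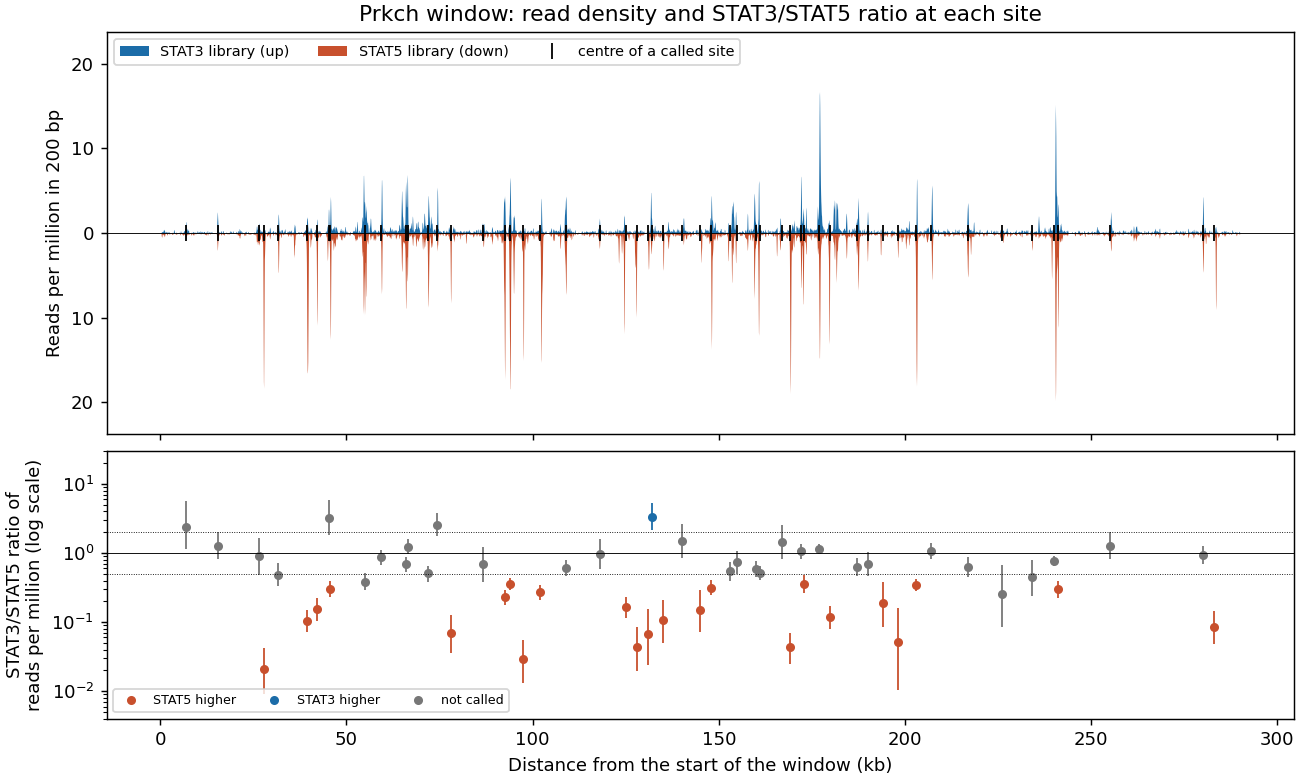
Prkch window. Top, RPM in 200 bp windows moved by 50 bp (vertical axis; STAT3 upward, STAT5 downward) by distance from the window's start (kb), with a tick at each of the 55 sites. Bottom, STAT3/STAT5 ratio at each site with its exact 95% interval (log axis, dotted lines at 2-fold), coloured by call; 23 sites lie below with STAT5 higher and 1 above with STAT3 higher.

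At Ptk2b the sites were lower and the tall ones were packed into the middle of the window. The 34 sites had a median of 38.5 STAT3 reads (0 to 246), 1.85 RPM, and 51.5 STAT5 reads (12 to 283), 2.87 RPM. Summed reads were 1890 and 2526, a STAT5 level 1.55 times that of STAT3 (1.46 to 1.64), beside 1.67 over all sites. The stretch from 50 to 100 kb held 13 of the sites, with 787 STAT3 and 1031 STAT5 reads, and the next 50 kb held 14, with 907 and 1279. The first 50 kb of the window held 5 sites with 70 and 99 reads. STAT5 was higher at 12 sites (35.3%, against 27.7% of all sites) and STAT3 at 1 (2.94%, against 3.18%). Median reads at the 12 STAT5-higher sites were 89.5 for STAT5 and 13.5 for STAT3.

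The Ptk2b site with most STAT3 reads, at chr14:66876551-66877000, had 246 STAT3 and 153 STAT5 reads (11.8 and 8.52 RPM, ratio 1.39, 1.13 to 1.71). The second, chr14:66837601-66838000, had 161 and 41 reads and was the one with STAT3 called higher (3.39, 2.40 to 4.91), a call lost under scaling on bins free of regions. Next came chr14:66849801-66850150 with 142 STAT3 and 83 STAT5 reads (1.48, 1.12 to 1.96), chr14:66818551-66819050 with 133 and 128 (0.898, 0.699 to 1.15), and chr14:66851101-66851400 with 104 and 121. Among these 5 tallest STAT3 sites, STAT5 was called higher at none, an outcome that picking them by STAT3 reads favours. Of lower sites that leaned to STAT3, chr14:66809201-66809600 had 62 STAT3 and 19 STAT5 reads (2.82, 1.66 to 4.99) and chr14:66893601-66893850 had 40 and 16 (2.16, 1.18 to 4.13), both short of a call.

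Of the 5 tallest STAT5 sites of Ptk2b, 4 were called higher with STAT5, and the other is the tallest STAT3 site. Picking sites by STAT5 reads favours such calls, so this count only describes the sites named. At chr14:66847851-66848250 there were 283 STAT5 and 73 STAT3 reads (4.49 times, 3.46 to 5.88), and at chr14:66884701-66885100 there were 253 and 97 (3.02 times, 2.38 to 3.85). The sites chr14:66859051-66859500 (146 and 16 reads, 10.6 times, 6.29 to 19.0) and chr14:66854351-66854750 (145 and 42, 3.99 times) followed. The site chr14:66829251-66829650, with 123 and 16 reads, was 8.89 times as high with STAT5 (5.26 to 16.0). The largest gap by the near bound was at a lower site, chr14:66873801-66874000, with 56 STAT5 and 3 STAT3 reads (21.6 times, 7.02 to 108); 3 reads are also fewer than the 4.22 that the level between sites gives. The 3 STAT5-higher sites in the first 50 kb were small, with 12, 25 and 16 STAT5 reads and 0, 2 and 1 STAT3 reads.

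**Figure D3:**
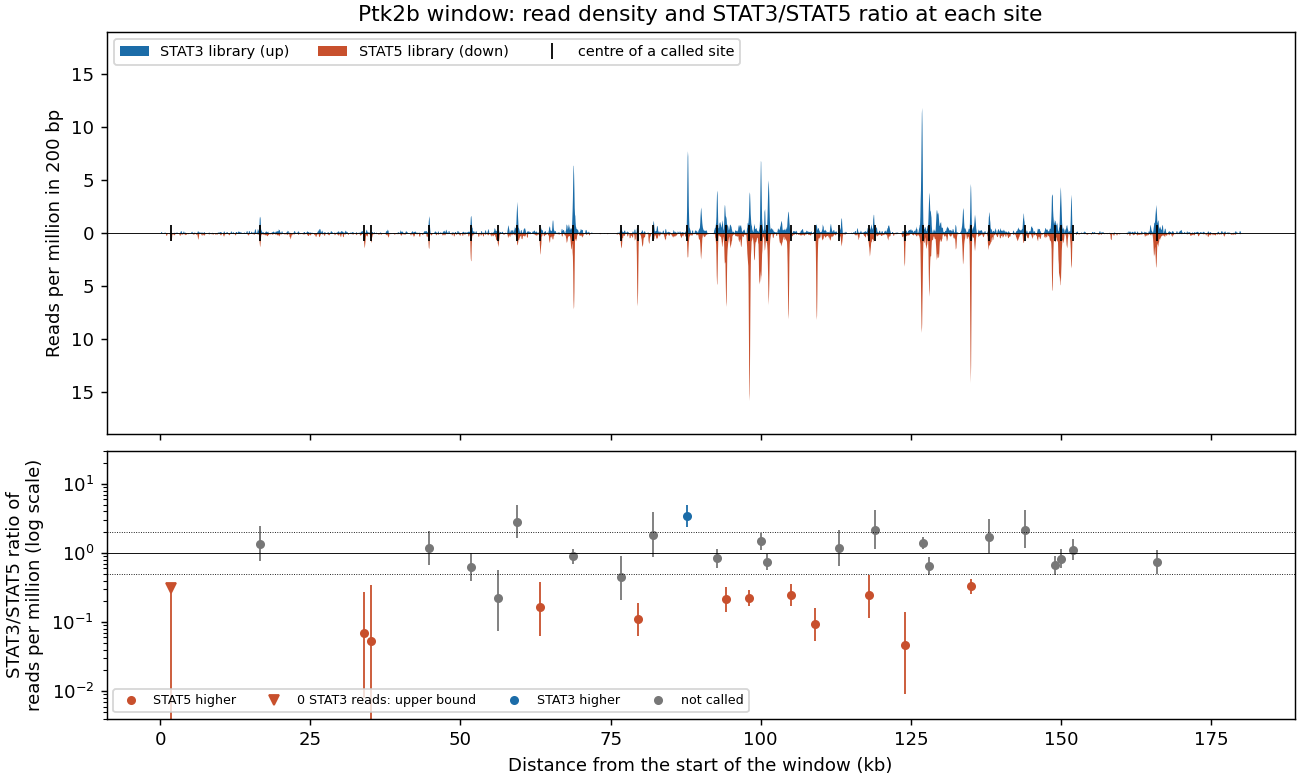
Ptk2b window, drawn as for Prkch: RPM in 200 bp (top, STAT3 upward and STAT5 downward) and STAT3/STAT5 ratio with its exact 95% interval at the 34 sites (bottom, log axis), by distance from the window's start in kb. Tall summits stand between 50 and 150 kb; a triangle marks the upper bound at the site with 0 STAT3 reads, and the lowest bounds leave the axis.

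The Map3k14 window had about equal levels of both, made up of sites that leaned either way. Its 28 sites had a median of 36 STAT3 reads (2 to 281), 1.73 RPM, and 30 STAT5 reads (6 to 272), 1.67 RPM. The summed 1641 STAT3 and 1389 STAT5 reads gave a STAT3/STAT5 ratio of 1.02 (0.950 to 1.10), where all sites of the genome gave 0.598. STAT3 was higher at 5 sites and STAT5 at 5 (17.9% each), against 3.18% and 27.7% of all sites. When the libraries were scaled on 10 kb bins free of regions, the STAT3 level became 0.723 of that in RPM. The ratio was then 0.738, with 3 sites higher with STAT3 and 7 with STAT5, against 1.20% and 34.5% of all sites.

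The 5 STAT3-higher sites of Map3k14 were spread from 49.2 to 156 kb into the window. The tallest, at chr11:103128851-103129300, had 281 STAT3 and 44 STAT5 reads (13.5 and 2.45 RPM), a ratio of 5.52 (4.01 to 7.77), and 0.604% of all sites had as many STAT3 reads. The next, at chr11:103205851-103206250, had 260 and 60 reads (3.75, 2.82 to 5.05). The site at chr11:103099051-103099450 was lower, with 66 and 10 reads and a ratio of 5.70 (2.91 to 12.4). The last pair, at chr11:103176601-103177100 (58 and 13 reads) and chr11:103165851-103166200 (38 and 6 reads), had ratios of 3.86 and 5.47, and the first of these lay just inside the limit, with an interval from 2.09 to 7.67. All 5 were sites of the STAT3 regions alone, as were 64.5% of the STAT3-higher sites of the genome. Their STAT5 reads ran from 6 to 60, where the level between sites gives 2.80 reads. The lowest count, 6, is only a few reads above that level, and whether it exceeds counting error was not tested.

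Tall STAT5 sites of Map3k14 stood close by. At chr11:103123601-103124100, before the tallest STAT3 site, there were 272 STAT5 and 108 STAT3 reads (STAT5 2.91 times as high, 2.32 to 3.68), and between them, at chr11:103126101-103126300, 157 and 110 (1.65 times, 1.29 to 2.13). At the other end, chr11:103207901-103208300, which lies 2050 bp after the second STAT3-higher site, had 170 STAT5 and 109 STAT3 reads (1.80 times, 1.41 to 2.32). Among lower sites, chr11:103134151-103134600 had 107 STAT5 and 10 STAT3 reads (12.4 times, 6.48 to 26.6), chr11:103109051-103109450 had 54 and 4, and chr11:103162251-103162700 had 63 and 14. The first site of the window, chr11:103052951-103053300, had 24 and 2 (13.9 times, 3.45 to 121). In stretches of 50 kb the STAT3/STAT5 ratio was 1.56 (1.23 to 1.98), then 0.726 (0.653 to 0.807) from 50 to 100 kb, and 1.32 (1.12 to 1.56) after that. Stretches of equal length before and after the window had ratios of 1.04 (0.959 to 1.14) and 1.20 (1.07 to 1.35).

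**Figure D4:**
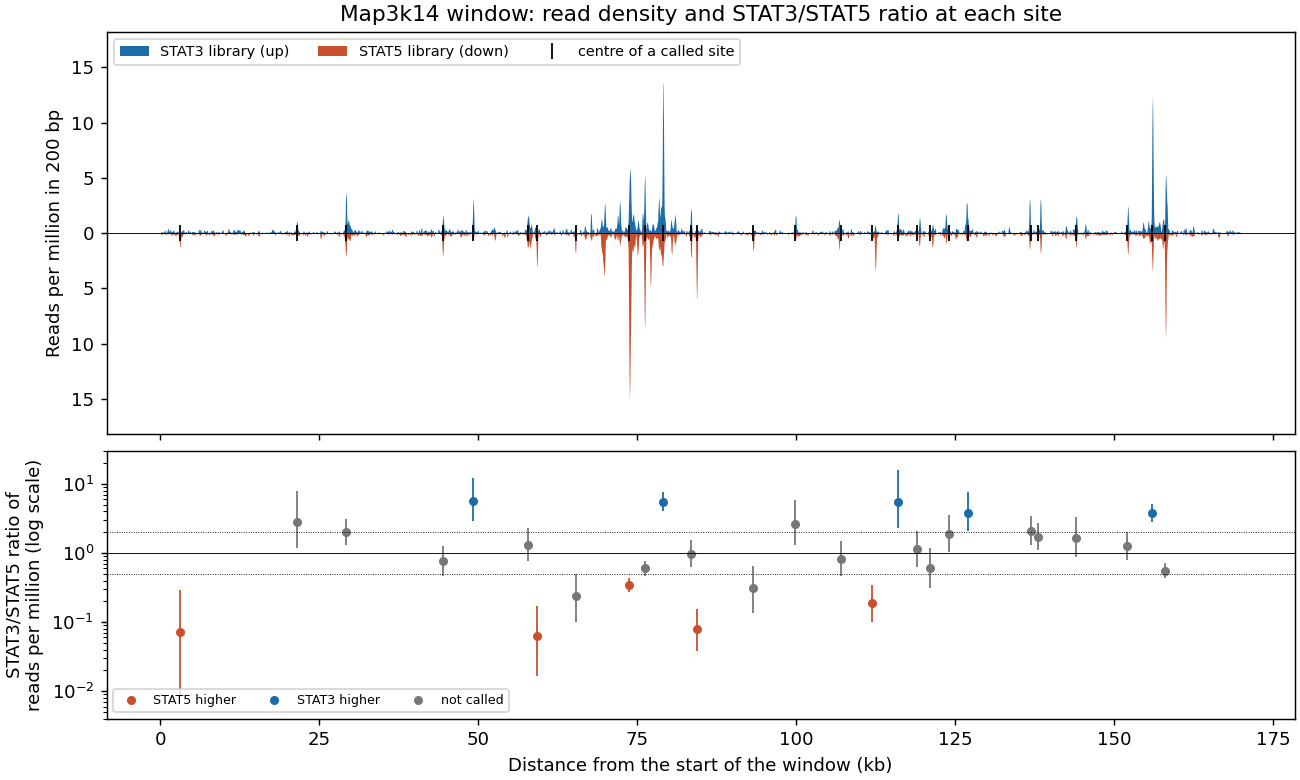
Map3k14 window, drawn as for Prkch: RPM in 200 bp (top, STAT3 upward and STAT5 downward) and STAT3/STAT5 ratio with its exact 95% interval at the 28 sites (bottom, log axis), by distance from the window's start in kb. The 2 tallest STAT3 summits, at 79.1 and 156 kb, each stand beside a tall STAT5 summit, at 73.8 and 158 kb.

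Of the 3 kinase genes, Map3k14 has a promoter in the RefSeq table (build GRCm38.p6). It is shown as the one kinase promoter at hand, beside that of its neighbour Arhgap27, the only one found with the STAT sequence. Neither was placed on mm9, so its distance from the sites was not tested. Each run is 300 bases on chromosome 11, minus strand, from 250 bases before to 50 after the gene's start, with any TTCNNNGAA (either strand, which read alike) in capitals. The Map3k14 promoter holds no match, and the Arhgap27 promoter shown holds 1, TTCTTGGAA, while 8.30% of the 32851 RefSeq promoters hold one. For 9 of 15 genes looked up, the kinases and the nearest protein-coding genes on each side, the table held 10 promoters, of which 1 had a match.
Map3k14: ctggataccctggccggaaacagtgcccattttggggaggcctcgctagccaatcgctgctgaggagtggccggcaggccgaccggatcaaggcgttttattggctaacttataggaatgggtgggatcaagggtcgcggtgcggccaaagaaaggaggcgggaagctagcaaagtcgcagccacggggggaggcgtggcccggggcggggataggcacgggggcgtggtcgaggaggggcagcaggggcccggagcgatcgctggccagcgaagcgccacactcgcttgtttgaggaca
Arhgap27: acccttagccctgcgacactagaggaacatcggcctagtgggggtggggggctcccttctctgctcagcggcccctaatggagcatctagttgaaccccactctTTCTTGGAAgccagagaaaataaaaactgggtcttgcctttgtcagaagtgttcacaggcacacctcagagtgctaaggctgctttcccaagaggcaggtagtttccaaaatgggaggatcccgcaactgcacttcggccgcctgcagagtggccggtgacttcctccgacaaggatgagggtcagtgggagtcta

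Side by side, the summed STAT3/STAT5 ratios rose from 0.430 (0.413 to 0.447) at Prkch through 0.647 (0.609 to 0.687) at Ptk2b to 1.02 at Map3k14, and the intervals did not overlap. The order was the same in all 11 recalculations that gave the 3 ratios. These reuse the same libraries, and a change of scale alone cannot alter the order, so they are not independent checks of it. Dense pieces of the genome give a frame for these values. Among 71 pieces of 290 kb with 42 or more sites the median ratio was 0.565 (quartiles 0.490 and 0.720), and 9 lay below Prkch. Among 247 pieces of 180 kb with 26 or more sites the median was 0.616, and 147 lay below Ptk2b. Among 720 pieces of 170 kb with 21 or more sites the median was 0.630 (quartiles 0.496 and 0.786), and 40 lay above Map3k14. The number of sites required was 75% of the window's own, a limit chosen after the sites were counted.

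**Figure D5:**
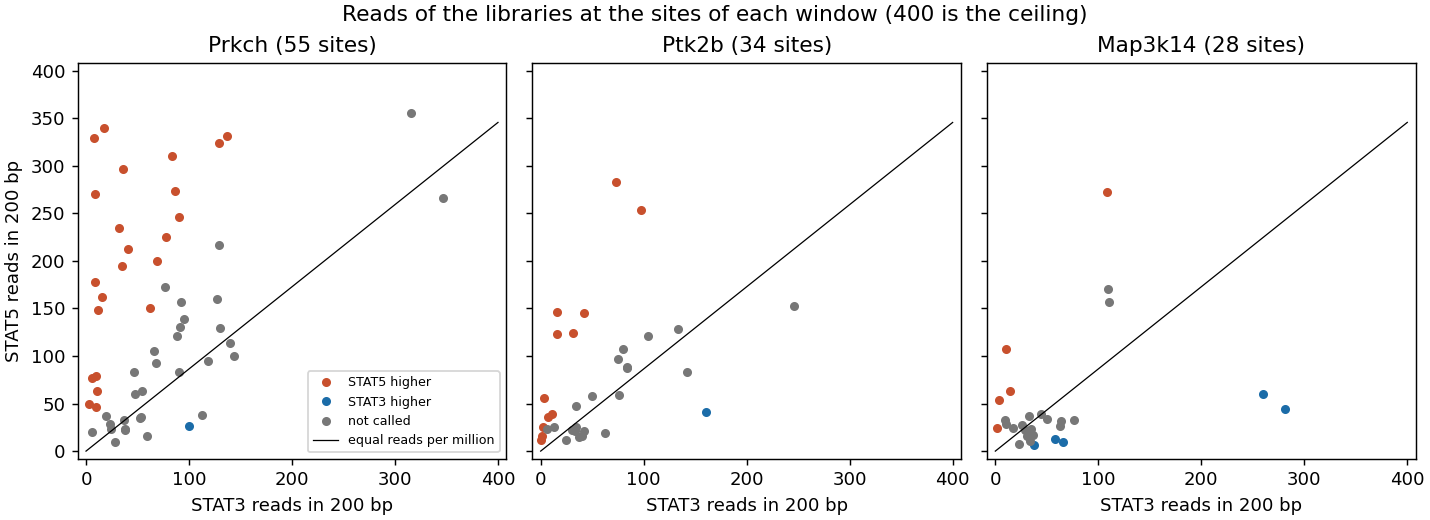
STAT3 reads (horizontal axis) against STAT5 reads (vertical axis) in 200 bp at each site of the 3 windows, 1 point per site, coloured by call, with the line of equal RPM. Tall STAT5 sites with few STAT3 reads fill the upper left at Prkch, and 2 of the 5 STAT3-higher sites of Map3k14 lie far to the right, the other 3 near the origin.

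Heights of the libraries were loosely related among the sites. Spearman's rho between STAT3 and STAT5 reads was 0.282 over the 55 Prkch sites, 0.520 over the 34 Ptk2b sites and 0.223 over the 28 Map3k14 sites, against 0.375 over all sites of the genome. These are descriptions across sites of the same libraries, selected for a region in at least 1 of them. Regions of both libraries made up 51 of the 117 sites (43.6%), near the 47.7% of all sites, with 24 sites of STAT3 regions alone and 42 of STAT5 regions alone. Of the 24 STAT3-alone sites 6 (25%) were called higher with STAT3, 5 of them at Map3k14, against 11.3% of such sites over the genome. Of the 42 STAT5-alone sites 30 (71.4%) were called higher with STAT5, against 62.1%. At the 31 sites with both regions and at least 50 reads of each, the median read positions of the libraries differed by a median of 20.5 bp (0 to 54.5), within 25 bp at 17. Both positions were taken around the same centre, at sites whose regions overlap, which favours small differences. No share over the genome was set beside this count.

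Neighbouring sites often differed in their ratio. Of 68 pairs of neighbours at most 5 kb apart, 50 (73.5%) had ratio intervals that did not overlap: 23 of 32 at Prkch, 17 of 22 at Ptk2b and 10 of 14 at Map3k14. Over the genome this was 54.3% of 28328 pairs. Taller sites have narrower intervals, and the median site of the windows had 42 STAT3 and 60 STAT5 reads against 25 and 31 over the genome, so the part of depth in this gap was not tested.

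Some changes were sharp over short distances, and these examples were chosen after their values were seen. In the Prkch window the STAT3-higher site of 100 STAT3 and 26 STAT5 reads lay 600 bp after chr12:74770951-74771250, which had 6 STAT3 and 77 STAT5 reads, and 3350 bp before chr12:74774901-74775250, which had 10 and 79. The ratios of the first of these pairs differed 49.4-fold. The STAT3-leaning site of 59 and 16 reads lay 450 bp before chr12:74685451-74685900, with 78 and 225, a 10.6-fold difference. Overlapping regions are merged, and each site is centred on the summit of its called region with the highest RPM. At a site of STAT3 or STAT5 regions alone, that is a summit of the library called. Such centring favours the library whose summit is used in the ratio. The part of this site definition in such differences was not tested. In the Map3k14 window the sites chr11:103162251-103162700 and chr11:103165851-103166200, called for STAT5 and STAT3 respectively, lay 3550 bp apart and differed 28.5-fold. Opposite calls at direct neighbours occurred in 3 of the 114 pairs (2.63%), against 1.44% of 86127 pairs over the genome. STAT5 was higher at both in 12 pairs (10.5%), against 8.38%, and 9 of these lay at Prkch.

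The ceiling of 1 read per position and strand bears on the tall sites. A window of 200 bp can hold 400 reads, and 16 Prkch sites (29.1%) had at least 50% of that with STAT5, with 88.8% at the most. There were 2 such sites at Ptk2b (5.88%) and 1 at Map3k14 (3.57%), beside 6.67% of all sites of the genome. For STAT3 these numbers were 2 (3.64%), 1 (2.94%) and 2 (7.14%), beside 2.07% of all sites. Ratios at such sites are compressed: corrected for positions already taken, the summed STAT3/STAT5 ratio at Prkch was 0.361 in place of 0.430.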

How the data were processed

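The deposited files list 1 aligned read of 25 nt per line (mm9 per the submitters' processing notes); the deposited score is 0 in every line and was not used. Aligner: not given in the sources used here. Filters: likewise. No position and strand occurs more than once. Reads were counted with Python 3.11.15, numpy 2.4.6, scipy 1.17.1 and pandas 2.3.3, and drawn with matplotlib 3.10.9.

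Read 5′ ends were moved 50 bp in the 3′ direction and counted in 200 bp windows moved by 50 bp over the nuclear chromosomes of the whole genome. A window was taken with 5 or more reads, 4-fold or more over whichever was highest of 3 means (whole genome, 10 kb and 5 kb around it), and a Poisson p (1-sided, Benjamini-Hochberg adjusted over windows with a read) at or below 1e-05. Windows within 100 bp were joined, and regions with over 80% of summit reads on 1 strand were dropped, leaving 56920 STAT3 and 70560 STAT5 regions. Regions sharing 1 bp or more were merged into sites, counted in 200 bp around the summit of higher RPM (reads per 1000000 nuclear reads). Local means include neighbouring sites, so a site in a dense cluster may be missed. Ratios have exact conditional (Clopper-Pearson) intervals. Caller and intervals were tested on simulated data. The simulated background was uniform at the genome-wide STAT3 mean, lower than the level between sites in these windows. The intervals were simulated without the ceiling on reads. The setting of these clusters was therefore not fully covered.

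With 1 library per group no p-value compares them. Members, named-site rule (5 tallest per library and 3 most extreme ratios per side in each window) and alternatives were chosen with earlier results of these data known. Related kinases could not be located without an mm9 annotation and were not analysed here.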

Additional observations from a re-analysis of the deposited data

How the results depend on the processing

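Of 97 recalculations, 75 stayed within limits (1.5 times for counts, the 95% interval otherwise) and 22 moved. A minimum of 8-fold left 22 Prkch, 12 Ptk2b and 14 Map3k14 sites, with median spacings of 11700 and 10250 bp at Prkch and Ptk2b, ratios of 0.407 at Prkch and 1.33 at Map3k14, and 19 STAT5-higher sites in all against 40. The genome-wide mean alone gave 106 Prkch and 52 Ptk2b sites, and median spacings of 1800, 1800 and 2725 bp. Fewer or more sites follow from these thresholds themselves. Counting in 400 bp gave a Prkch ratio of 0.452. Scaling by 10 kb bins without a region gave ratios of 0.311, 0.467 and 0.738 at Prkch, Ptk2b and Map3k14 and 3 STAT3-higher sites against 7, which follows from the lower STAT3 scale. Correction for positions taken gave 0.361 at Prkch. All reads of the windows gave 0.637, 0.823 and 1.18, which include reads between sites. Thinning STAT3 to the STAT5 depth, a stricter p, no strand filter, each library's own fragment length and joining of touching windows alone moved no result beyond its limit. Ratios from sites with under 10 reads of a library have wide intervals, and those at the tallest sites are bounded by the ceiling.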
